A study of Mus musculus with 8 samples.

Results

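The Kruppel-like factors described here are 6 transcription factor genes of the vessel wall, Klf2, Klf4, Klf5, Klf6, Klf9 and Klf15. They were taken as all probe sets of the deposited table that the platform annotation gives to exactly 1 of these symbols, which gave 19 of 45037 probe sets, for 6 of 18193 genes. Of the 19, 17 were tested, and 2 dim ones, 1451739_at of Klf5 and 1452723_at of Klf9, were left out by a filter on low mean values. Klf2 and Klf15 had 1 probe set each, Klf4 had 2, Klf5 had 3, Klf6 had 5 and Klf9 had 7.

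The mutant mice carried the floxed Srf allele SRF-flex2neo and SM22CreERT2ki/+, a tamoxifen-inducible Cre recombinase knocked into 1 allele of Tagln, which encodes SM22 of smooth muscle. The control mice were littermates with SRF-flex2neo and, as labelled, no Cre. Mice of both groups were 4 months old, had 1 mg of tamoxifen injected intraperitoneally on 3 days and were killed 8 days later, so the inducer is shared and the Cre insertion in Tagln is not. RNA of the whole aorta was measured on Affymetrix arrays, 4 mutant and 4 control, each from 2 ug of total RNA. The titles number 2 sets: set 1 holds mutants 1 and 2 and controls 1 and 2, and set 2 holds mutants 3 and 4 and controls 3 and 4. The sources used here give neither the meaning of a set nor whether every array had its own mouse. The p-values therefore cover the spread between arrays, and that spread may be technical.

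Kruppel-like factors bind GC-rich and CACCC sequences through zinc fingers at the end of the protein. In endothelial cells laminar flow raises Klf2 and Klf4 through a kinase pathway that ends on MEF2 factors, and both raise anti-inflammatory and anticoagulant genes; both are also made by leukocytes. In smooth muscle cells Klf4 represses contractile genes that SRF and myocardin activate, Klf5 accompanies the activated, dividing state, and Klf6 is an early gene of vascular injury that acts on TGF-beta pathway genes. Klf9 and Klf15 are induced by glucocorticoids and follow the circadian clock, and Klf15 controls amino acid and lipid use and restrains growth of heart and smooth muscle.

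Promoters of Klf2, Klf4 and Klf15 are shown because Klf2 and Klf4 had similar profiles over the arrays and Klf15 differed between the sets. Each is the 250 bases before the RefSeq start site in GRCm38.p6, which was at hand for 5 of the 6 genes, all but Klf5. For Klf15 the promoter table used a start site inside the annotated gene span, so its stretch and positions refer to that start, while the other 4 lie just before the gene span. Capitals mark a MEF2 site (CTA, 4 letters A or T, TAG), a CArG-like box (CC, 5 letters A or T, GG) or an E box (CACGTG), searched on both strands.
Klf2 (chr8:72318812-72319061, plus strand): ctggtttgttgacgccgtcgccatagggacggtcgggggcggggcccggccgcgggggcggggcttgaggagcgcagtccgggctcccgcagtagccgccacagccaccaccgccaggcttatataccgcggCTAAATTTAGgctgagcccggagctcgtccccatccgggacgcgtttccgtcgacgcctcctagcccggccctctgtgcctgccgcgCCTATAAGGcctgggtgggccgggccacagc
Klf4 (chr4:55532476-55532725, minus strand): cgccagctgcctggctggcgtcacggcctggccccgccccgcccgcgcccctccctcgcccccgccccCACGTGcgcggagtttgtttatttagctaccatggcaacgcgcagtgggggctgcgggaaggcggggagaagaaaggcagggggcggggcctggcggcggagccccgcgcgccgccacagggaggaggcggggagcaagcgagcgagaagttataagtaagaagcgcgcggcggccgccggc
Klf15 (chr6:90462326-90462575, plus strand): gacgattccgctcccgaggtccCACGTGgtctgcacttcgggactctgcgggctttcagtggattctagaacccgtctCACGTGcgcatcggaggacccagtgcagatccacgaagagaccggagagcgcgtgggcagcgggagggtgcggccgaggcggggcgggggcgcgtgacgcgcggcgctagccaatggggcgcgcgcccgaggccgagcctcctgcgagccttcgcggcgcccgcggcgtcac
The Klf2 promoter held the MEF2 site CTAAATTTAG 118 bases before the start, and 167 of 32851 mouse promoters of this length (0.508%) hold such a site. It also held the CArG-like box CCTATAAGG 31 bases before the start, as did 2.59% of promoters. This form is shorter than the full CArG box and was searched after the Klf2 sequence had been seen. Whether SRF binds it was not tested. The full CArG box that SRF binds (CC, 6 letters A or T, GG) was in none of the 5 promoters and in 1.47% of all promoters. An E box, the sequence that clock factors bind, was in 6.02% of promoters: Klf15 held 2, at 228 and 172 bases before the start, Klf4 held 1 at 182 and Klf6 held 1 at 43, while Klf2 and Klf9 held none in this window. Klf6 also held the CArG-like box CCAATAAGG at 200, which overlaps a CCAAT box. The GC box GGGCGG, found in 32.7% of promoters, occurred 4 times in Klf4 and 2 times in Klf2. Of the commoner motifs searched, CACCC was in 52% of promoters, CCAAT in 33.8% and TATAAA in 12.4%, and TATAAA was in none of the 5. A match describes letters only.

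Values are deposited log2 values, and each difference is the mutant minus the control value, in log2 units, from limma with the set as a term, adjusted by Benjamini-Hochberg over 27023 probe sets. Array medians lay between 3.72 and 3.98, and the number of arrays limits the precision. Mutant 2 stood apart from the rest: its correlations with the other arrays across probe sets were 0.961 to 0.974, against 0.983 to 0.997 among the others. Its Schwann cell and neuron markers averaged 10.18, against 4.71 to 5.37 on the other 7 arrays. All 12 smooth muscle markers were tested, with Acta2, smooth muscle actin, at 15.33 to 15.40 over the arrays. Srf itself did not differ by a called amount: its brightest probe set averaged 10.10 ± 0.38 in mutants and 10.30 ± 0.17 in controls (SD, n = 4 each; difference -0.20, SE 0.19, limma adjusted p = 0.686). Whether its probes lie in the deleted part is not known from the sources used here, so this value does not check the deletion.

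None of the 17 tested probe sets of the 6 factors passed the test between mutants and controls, as was true of all 27023 probe sets (0% called). At an unadjusted limma p under 0.05, 3 of the 17 were higher in mutants, the 1 of Klf2 and both of Klf4, against 4.5% of all probe sets, and 0 of 17 were lower, against 5.05%. Across all 17, 8 differences were above 0 and 9 below. The smallest adjusted p among the 17 was 0.384, for Klf4.

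Klf2, the flow-induced factor of endothelium (chr8:72319062-72321654, GRCm38.p6), stood at 10.58, 10.56, 10.00 and 10.35 in mutants 1 to 4, against 8.80, 8.78, 10.06 and 9.89 in controls 1 to 4. Both set 1 controls were far below every other array, and in set 2 the groups overlapped. The mutants averaged 10.37 ± 0.27 and the controls 9.38 ± 0.69 (SD, n = 4 each), a difference of 0.99 (SE 0.31, 95% interval 0.25 to 1.73) or 1.99-fold. Its limma p was 0.016 before and 0.462 after adjustment. Set 1 alone gave 1.78 and set 2 alone 0.20. The change of that difference between sets, -1.58 (SE 0.19), had the 24th smallest interaction p of all probe sets, 0.000162, and an adjusted p of 0.183, in a test that called 0.0518% of probe sets. With all arrays it also failed under other settings, with limma adjusted p of 0.144 with no filter, 0.159 with quantile normalization and 0.246 with no variance trend. Leaving out 1 array leaves 1 array for a genotype in a set, so only the size is given there, -1.76 to -1.41.

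Klf4, which endothelium makes under flow and injured smooth muscle makes while losing contractile genes (chr4:55527137-55532475, GRCm38.p6), had 10.78, 10.56, 10.57 and 10.56 in mutants 1 to 4, against 9.45, 9.38, 10.40 and 9.89 in controls 1 to 4 on its brighter probe set, 1417394_at. Every mutant lay above every control. It was the 1 of 17 probe sets with all mutants above all controls (5.88%), where 1.43% of all probe sets had this. The mutants averaged 10.62 ± 0.11 and the controls 9.78 ± 0.47 (SD, n = 4 each), a difference of 0.84 (SE 0.20, 95% interval 0.37 to 1.30, 1.79-fold, limma adjusted p = 0.384). It was 1.26 in set 1 and 0.42 in set 2, and the change between sets did not pass (-0.84, adjusted p = 0.824). The dimmer probe set, 1417395_at, read 7.79, 8.40, 8.83 and 8.86 in mutants 1 to 4, against 6.99, 6.84, 8.67 and 8.26 in controls 1 to 4. There the groups overlapped over all arrays, while both mutants lay above both controls within each set, and the difference was 0.78 (SE 0.22, limma adjusted p = 0.44). The 2 probe sets had a correlation of 0.90 over the 8 arrays once set means were removed.

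**Figure D1:**
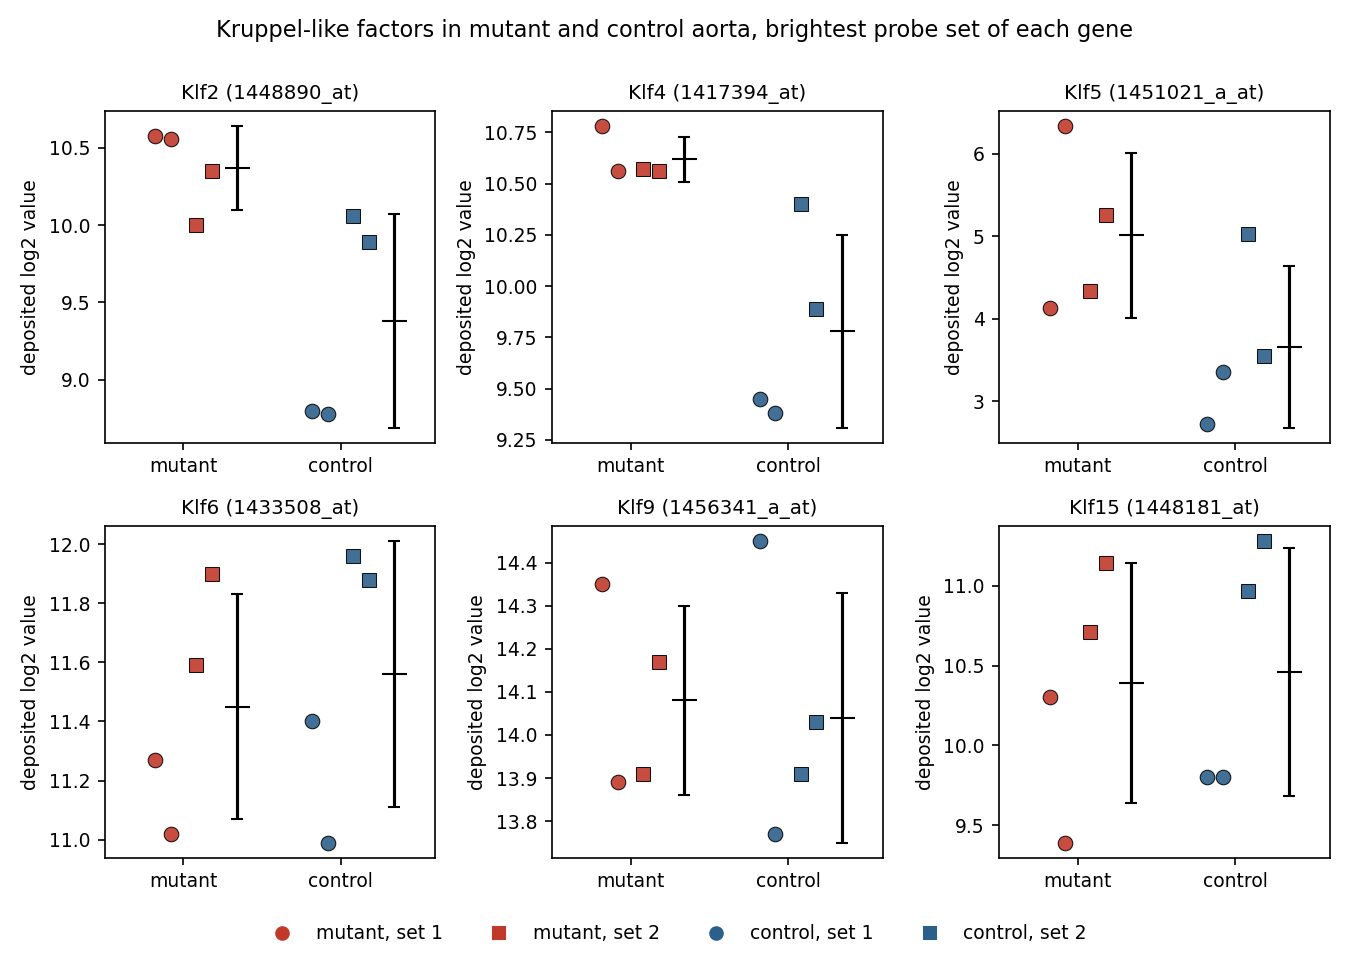
Deposited log2 values (vertical axis, one scale per panel) of the brightest probe set of each gene in mutant and control arrays, with circles for set 1 and squares for set 2. Bars show the mean and SD of 4 arrays. The Klf4 panel has all mutants, at 10.56 to 10.78, above all controls, at 9.38 to 10.40, and in the Klf2 panel the set 1 controls lie lowest, at 8.78 and 8.80.

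Klf5, which activated smooth muscle makes (chr14:99298691-99313412, GRCm38.p6), was dim. Its brightest probe set read 4.13, 6.33, 4.34 and 5.25 in mutants 1 to 4, against 2.72, 3.35, 5.03 and 3.55 in controls 1 to 4. Mutant 2 was the highest array and control 3 lay above mutants 1 and 3, so the groups overlapped. The difference was 1.35 with a wide error (SE 0.64, 95% interval -0.16 to 2.86, limma adjusted p = 0.553), with 2.20 in set 1 and 0.51 in set 2, and it was 0.74 without mutant 2. Controls 1, 2 and 4 lay below the lowest array median, 3.72, and control 1 below the filter's lowest mean kept, 2.97. The set 1 difference is thus taken against values near the floor, and the stricter filter left Klf5 untested. Endothelial, adipocyte and nerve markers moved with Klf5, as given below with the other marker lists. Their list means were also highest on mutant 2, at 9.63, 11.98 and 10.18. The other probe sets of Klf5 lay near the filter's floor on every array: 1430255_at read 2.98 to 3.24 in mutants and 2.98 to 3.05 in controls, with a difference of 0.04. Its correlation with the brightest Klf5 probe set was -0.12 once set means were removed.

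Klf6, the injury-induced factor (chr13:5861489-5870393, GRCm38.p6), had differences of -0.28 to -0.02 over its 5 probe sets, all below 0 and none called. The brightest, 1433508_at, read 11.27, 11.02, 11.59 and 11.90 in mutants 1 to 4, against 11.40, 10.99, 11.96 and 11.88 in controls 1 to 4. The groups covered the same range, and the difference was -0.11 (SE 0.12, 95% interval -0.40 to 0.17, limma adjusted p = 0.72). The lowest difference was that of 1427742_a_at, -0.28 (SE 0.13, 95% interval -0.59 to 0.03). Probe sets whose names end in _s_at or _x_at can share probes with other transcripts. This holds for 1447448_s_at and 1459718_x_at of Klf6 and for 1422264_s_at of Klf9.

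Klf9, a glucocorticoid- and clock-controlled factor (chr19:23141226-23168129, GRCm38.p6), had differences of -0.20 to 0.04 over its 6 tested probe sets. The brightest, 1456341_a_at, read 14.35, 13.89, 13.91 and 14.17 in mutants 1 to 4, against 14.45, 13.77, 13.91 and 14.03 in controls 1 to 4. The groups overlapped throughout, with a difference of 0.04 (SE 0.17, 95% interval -0.37 to 0.45, limma adjusted p = 0.936). The untested 1452723_at read 2.34 to 2.51 in mutants and 2.29 to 2.40 in controls. Klf15, the metabolic factor (chr6:90461043-90491803, GRCm38.p6), read 10.30, 9.39, 10.71 and 11.14 in mutants 1 to 4, against 9.80, 9.80, 10.97 and 11.28 in controls 1 to 4. Set 2 arrays of both groups lay above the set 1 arrays, and mutants and controls overlapped, with a difference of -0.08 (SE 0.21, 95% interval -0.58 to 0.42, limma adjusted p = 0.896). The signs of the Klf9 and Klf15 values changed with single arrays and settings.

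**Figure D2:**
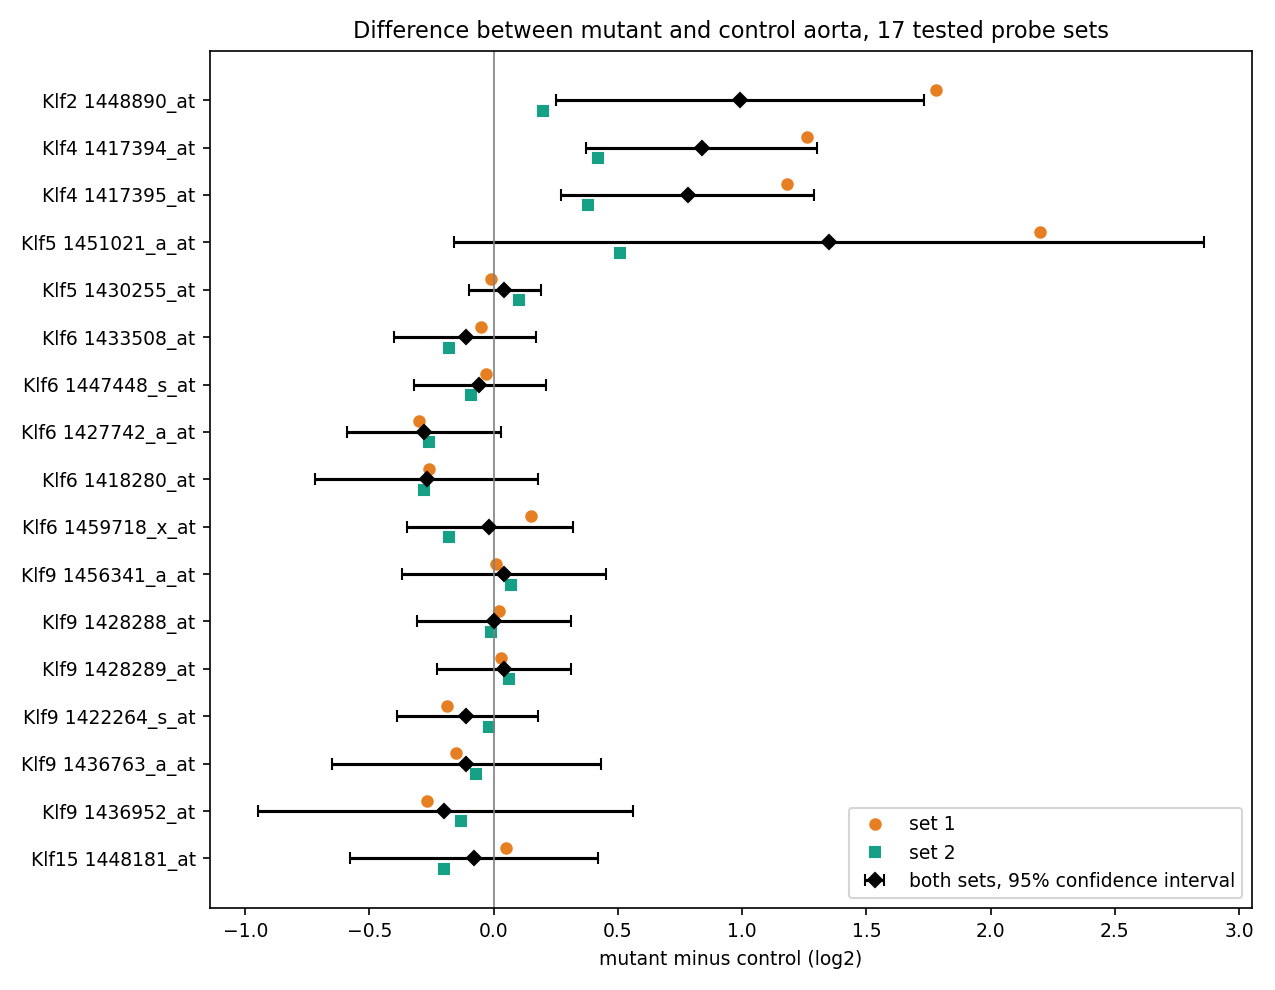
Difference between mutant and control arrays on the log2 scale (horizontal axis) for the 17 tested probe sets, with the 95% confidence interval over both sets and the difference within set 1 (circle) and set 2 (square). The intervals of Klf2 (0.25 to 1.73) and of both Klf4 probe sets lie above 0, those of the other 14 span it, and for Klf2, Klf4 and the brightest Klf5 probe set the set 1 difference is the greater.

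In whole tissue, a change in the number of cells of a type and a change in RNA per cell cannot be told apart, and the markers of other cell types moved beside Klf2, Klf4 and Klf5. Leukocyte and macrophage markers averaged 6.27 to 8.09 on mutant arrays and 5.59 to 6.30 on control arrays, with all 16 tested of 20 higher in mutants, 15 at an unadjusted limma p under 0.05 and 0 after adjustment. The count of 15 was 7 without control 2 or without mutant 1, 8 without control 1 and 9 without mutant 2. Their median difference was 1.20, and it was 1.99 in set 1 and 0.41 in set 2. The remaining markers of the list, among them Cd3e and Itgam, had no tested probe set. Ptprc, the pan-leukocyte gene CD45, read 6.99, 7.10, 3.77 and 4.51 in mutants 1 to 4, against 3.69, 3.70, 4.16 and 3.65 in controls 1 to 4, so both set 1 mutants stood far above the other arrays.

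Endothelial markers averaged 7.80 to 9.63 on mutant arrays and 7.23 to 8.02 on control arrays, with 15 of 16 higher and 10 at an unadjusted p under 0.05 (median 0.95, with 1.37 in set 1 and 0.49 in set 2). Adventitial fibroblast markers averaged 10.89 to 11.18 on mutant arrays and 9.70 to 10.94 on control arrays, with 11 of 13 higher (median 1.03). Smooth muscle markers averaged 13.34 to 13.50 on mutant arrays and 13.68 to 13.81 on control arrays, with 0 of 12 higher (median -0.26). Adipocyte markers had 9 of 9 higher (median 1.17, with 0.48 without mutant 2 and 0.52 without control 1), Schwann cell and neuron markers 10 of 10 (median 1.80, and 0.00 without mutant 2) and striated muscle markers 2 of 7 (median -0.08, and -0.38 without mutant 2). None of these genes passed after adjustment with all arrays, and without control 3 the endothelial Ptprb and the fibroblast genes Pi16 and Scara5 did. The part of these cell types in the Klf2, Klf4 and Klf5 values was not tested.

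**Figure D3:**
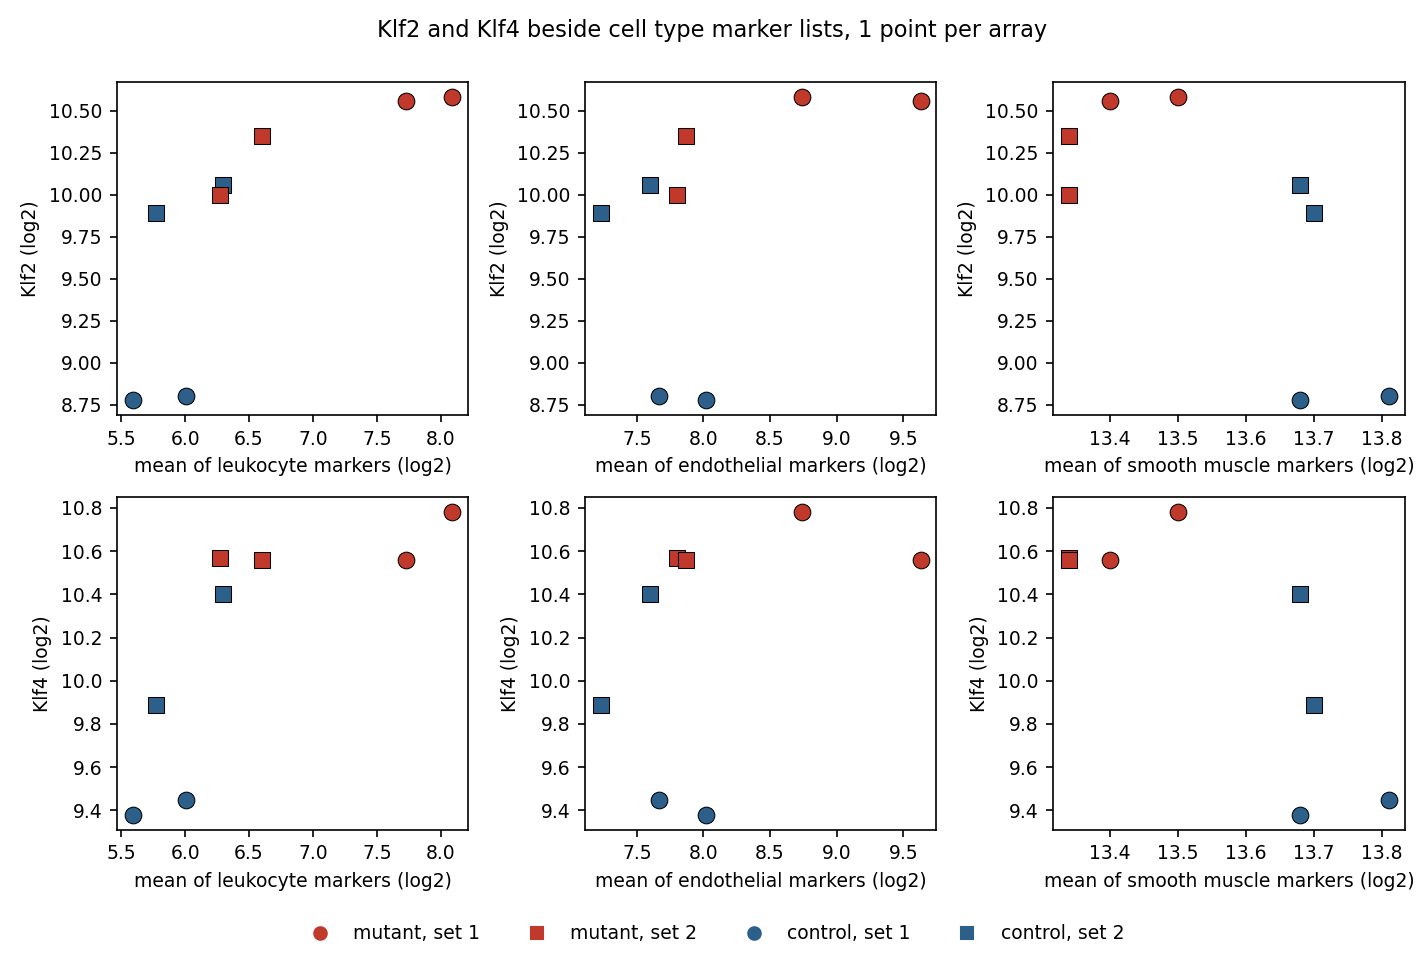
Klf2 (upper row) and Klf4 (lower row) on the vertical axis against the mean of the leukocyte, endothelial and smooth muscle marker lists on the horizontal axis, all deposited log2 values, 1 point per array. The set 1 mutants have high Klf2, high Klf4 and the highest leukocyte means (7.73 and 8.09). The set 2 mutants have lower leukocyte means, yet their Klf4 values, 10.57 and 10.56, match the 10.56 of mutant 2. The smooth muscle mean splits mutants (up to 13.50) from controls (from 13.68).

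Profiles were compared over the 8 arrays after set means were removed, as a description, since the arrays share genotype and tissue makeup. Klf2 and Klf4 had r = 0.94 with each other and 0.78 and 0.73 with Klf5, while Klf6, Klf9 and Klf15 had r = 0.57 to 0.79 among themselves and -0.44 to 0.10 with the other 3. Of 12172 genes, those most like Klf2 were Ptprc (r = 0.998), Laptm5 (r = 0.997) and Pla2g7 (r = 0.992). The r values of Klf2, here and with the marker lists, rest mainly on set 1, where mutants read 10.58 and 10.56 and controls 8.80 and 8.78. Ptprc read 3.65 to 4.51 on all arrays but mutants 1 and 2, set 2 arrays included, where Klf2 read 9.89 to 10.35. Those most like Klf4 were Icam2 (r = 0.994), Tmod3 (r = 0.993) and Cybb (r = 0.991). The Klf4 difference was also greater in set 1, at 1.26, than in set 2, at 0.42, so its r values rest more on set 1. The median r of Klf2 was 0.93 with leukocyte markers, 0.85 with endothelial, 0.80 with fibroblast, 0.74 with adipocyte, 0.56 with nerve and -0.72 with smooth muscle markers, beside -0.18 with all genes. For Klf4 it was 0.94 with leukocyte, 0.91 with fibroblast, 0.84 with endothelial, 0.60 with adipocyte, 0.44 with nerve and -0.71 with smooth muscle markers, beside -0.12 with all genes. For Klf5 it was 0.87 with endothelial, 0.87 with adipocyte, 0.84 with nerve, 0.75 with fibroblast, 0.70 with leukocyte and -0.76 with smooth muscle markers, beside -0.22 with all genes. Mutant 2 was the highest array for Klf5 and for the endothelial, adipocyte and nerve means, and r without it was not computed. Not every marker followed its list. The lowest r with endothelial and fibroblast markers was -0.76 and -0.79 for Klf2 and -0.60 and -0.68 for Klf4. For Klf5 both were -0.76. Most like Klf5 were Bend5 (r = 0.997), Sc5d (r = 0.994) and St6galnac2 (r = 0.985). Most like Klf6 were Gpx1 (r = 0.986), Cd44 (r = 0.985) and Ipo9 (r = 0.981). Most like Klf9 were Ascc2 (r = 0.980), Rundc1 (r = 0.975) and Rrp8 (r = 0.965), and most like Klf15 were Trir (r = 0.980), Slc7a5 (r = 0.971) and Setd5 (r = 0.963).

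The genes around the 6 factors are given next by list, with 1 brightest probe set a gene. No gene of these lists passed the limma test after adjustment. Over all 12173 genes tested, 10.4% had an unadjusted p under 0.05, 44.9% had a difference above 0 and the median difference was -0.02. Upstream of Klf2 and Klf4, 5 of 14 tested genes of the flow pathway were higher and 9 lower (median -0.04), with 1 at an unadjusted p under 0.05, Heg1, an endothelial receptor of that pathway: 8.49 ± 0.34 in mutants and 7.88 ± 0.33 in controls (difference 0.61, SE 0.13, adjusted p = 0.384). Srf cofactors and partners had 4 of 10 higher (median -0.13), with Mrtfb, a cofactor of SRF, at 0.22 (SE 0.09, adjusted p = 0.51). The other Kruppel-like and Sp factors had 6 of 13 higher (median -0.02), among them Klf7 at 0.28 (SE 0.11, adjusted p = 0.51) and Klf11 at -0.38 (SE 0.15, adjusted p = 0.511).

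Of genes that Klf2 or Klf4 are known to raise in endothelium, 14 of 16 were higher in mutants (median 0.45). At an unadjusted p under 0.05, 7 were higher and 1 was lower, a count of 8 that was 5 without control 1 or without mutant 3. The lower one was Nqo1, an enzyme of the oxidative stress response, at -0.57 (SE 0.22, adjusted p = 0.505). Nos3, the endothelial nitric oxide synthase, averaged 9.03 ± 0.49 in mutants and 7.92 ± 0.15 in controls (difference 1.11, SE 0.21, adjusted p = 0.375). Tek, the angiopoietin receptor, differed by 1.15 (SE 0.22), Dhh by 1.01 (SE 0.21) and Thbd, thrombomodulin, by 0.46 (SE 0.14). Of genes that the 2 factors are known to lower there, 7 of 10 were also higher (median 0.41), among them the leukocyte adhesion genes Icam1, at 1.42 (SE 0.41, adjusted p = 0.448), and Vcam1, at 0.75 (SE 0.16, adjusted p = 0.384). The medians of both lists lay above 0, though not all of their genes did. Tek and Nos3 are endothelial markers as well.

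Of smooth muscle genes that Klf4 represses, 10 of 11 were lower (median -0.25, and -0.15 without mutant 2), 5 at an unadjusted p under 0.05. Tagln, an allele of which holds the Cre insertion in mutants, averaged 15.03 ± 0.11 in mutants and 15.32 ± 0.04 in controls (difference -0.29, SE 0.05, adjusted p = 0.375). Cnn1, calponin, differed by -0.40 (SE 0.10), Myh11, smooth muscle myosin, by -0.21 (SE 0.05) and Kcnma1, a potassium channel, by -0.46 (SE 0.09). Contractile genes are also activated by SRF and myocardin, and the part of either factor in these values was not tested. Of genes tied to Klf5, 4 of 8 were higher (median 0.28, with 0.16 without control 1, 0.08 without mutant 2 and 0.42 without mutant 1), with Ctss, a protease of macrophages, at 1.58 (SE 0.57, adjusted p = 0.491), and of genes tied to Klf6, 6 of 10 were higher (median 0.16, and 0.07 without control 4 or without mutant 3), with Eng, a TGF-beta receptor part, at 0.46 (SE 0.11, adjusted p = 0.384).

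Around Klf9 and Klf15, the glucocorticoid list held induced genes and the receptor gene Nr3c1. Of its 15 tested genes, 13 were higher in mutants (median 0.32, with 0.15 without mutant 4, 0.19 without mutant 2 and 0.51 without mutant 3), 2 at an unadjusted p under 0.05, or 7 without mutant 3. The 2 with all arrays were Angptl4 at 0.90 (SE 0.22, adjusted p = 0.385) and Tsc22d3, the glucocorticoid-induced leucine zipper, at 1.07 (SE 0.41, adjusted p = 0.507). Clock genes had 5 of 17 higher (median -0.17, with 0.00 without mutant 3 and -0.31 without mutant 4), 0 of them at an unadjusted p under 0.05, with Nr1d1 at -0.60 (SE 0.26). Metabolic genes that Klf15 raises had 11 of 12 higher (median 0.36, with 0.83 in set 1 and -0.11 in set 2, 0.13 without mutant 2 and 0.58 without mutant 3), where adipocyte markers had medians of 2.75 in set 1 and -0.40 in set 2. The part of fat tissue in those metabolic values was not tested. Genes that Klf15 represses had 2 of 6 higher (median -0.03), and immediate-early genes had 12 of 24 higher (median 0.02).

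**Figure D4:**
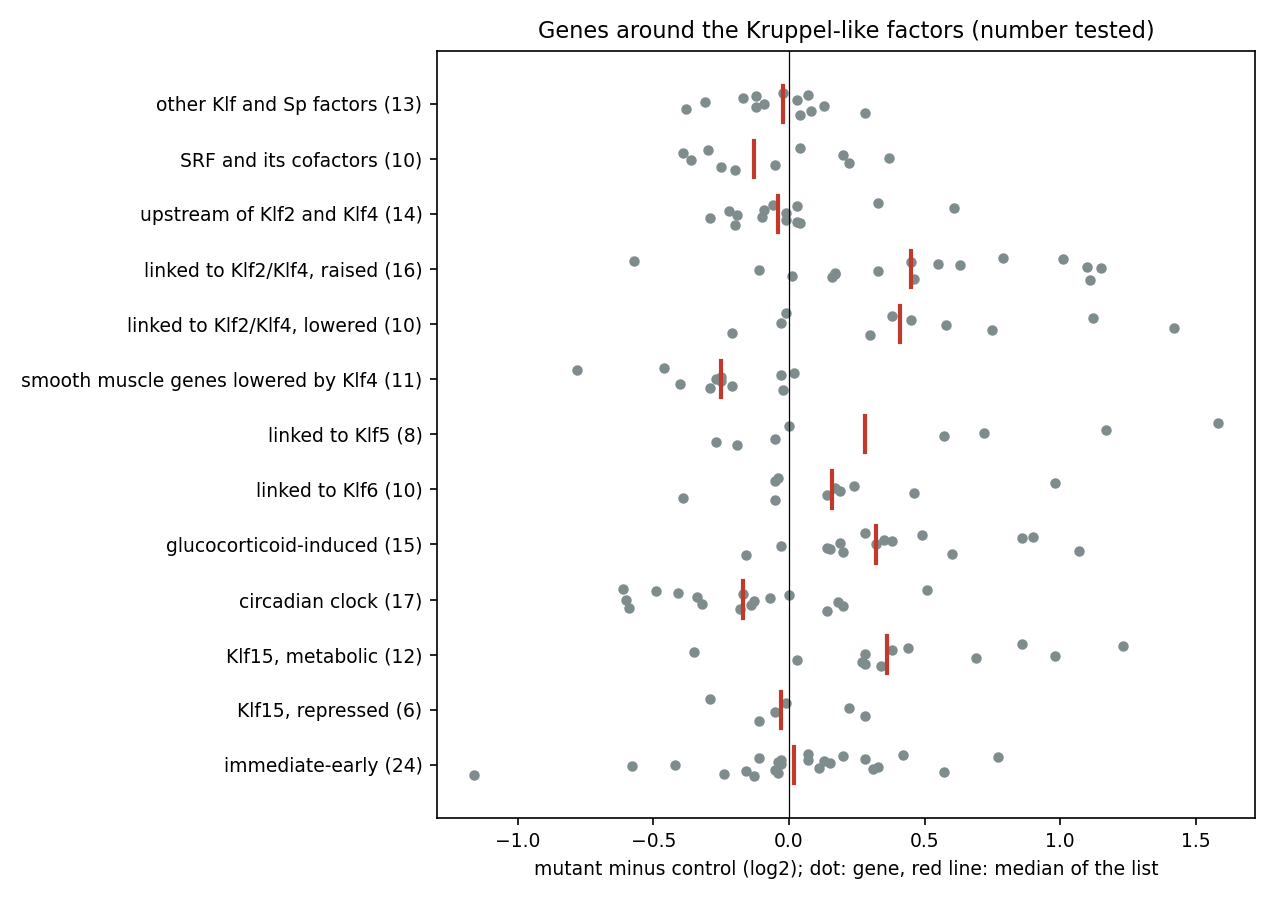
Difference between mutant and control arrays on the log2 scale (horizontal axis) for each tested gene of 13 lists, with the number tested in brackets and a red line at the list's median. The lists that Klf2 or Klf4 raise and lower in endothelium both have medians above 0 (0.45 and 0.41), and the smooth muscle list has a median of -0.25.

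The sets, unlike the genotypes, gave called differences. Of the 17 probe sets, 8 were higher in set 2 than in set 1 (47.1%), against 10.9% of all probe sets, and 2 were lower (11.8%), against 10.6%, at a limma adjusted p under 0.05 with genotype as a term. Probe sets of 1 gene are not independent: of the 8, 3 were of Klf6, 3 of Klf9, 1 of Klf4 and 1 of Klf15. By brightest probe set, Klf6 and Klf15 were called higher, and Klf2, Klf4, Klf5 and Klf9 were not called, where 8.81% of all genes were called higher. Klf15 was higher in set 2, at 10.71 and 11.14 in mutants and 10.97 and 11.28 in controls, against set 1 at 10.30 and 9.39 in mutants and 9.80 and 9.80 in controls. The set difference was 1.20 (SE 0.21, adjusted p = 0.00912), and all 4 set 2 arrays lay above all 4 set 1 arrays. Klf6 was higher in set 2 on 3 of 5 probe sets, by 0.66 on the brightest (SE 0.12, adjusted p = 0.0103). The dimmer Klf4 probe set was higher in set 2 by 1.15 (SE 0.22, adjusted p = 0.012), while the brighter one, at 0.31 (SE 0.20), was not called.

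The 6 tested probe sets of Klf9 did not move together between the sets. Of them, 3 were higher in set 2, among them 1428289_at by 1.22 (SE 0.11, adjusted p = 0.00119), and the brightest did not pass, at -0.11 (SE 0.17, adjusted p = 0.655). The other two were lower: 1436763_a_at had a set difference of -1.31 (SE 0.23, adjusted p = 0.00882) and 1436952_at one of -2.20 (SE 0.32, adjusted p = 0.00469). The last read 5.19 and 5.39 in set 2 mutants and 5.42 and 5.41 in set 2 controls, against 8.08 and 6.75 in set 1 mutants and 8.12 and 7.24 in set 1 controls. Of 5820 genes with 2 or more tested probe sets, 232 (3.99%) had probe sets called in both directions between the sets, and of the 186 genes with 6 or more, 41 (22%) did. The Klf9 span of 3.42 between its highest and lowest set difference ranked 20th, where the median span was 0.45. The transcript parts that these probe sets cover are not known from the sources used here, so no single set difference is given for Klf9.

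Genes of the glucocorticoid list were also higher in set 2, with 10 of 15 called and 0 called lower (median 1.23), against 8.81% of all genes called higher. The genes named here for this contrast were chosen after their values were seen. Zbtb16, a transcriptional repressor that hormone induces, averaged 13.06 ± 0.22 in set 2 and 10.02 ± 0.33 in set 1 (SD, n = 4 each), a difference of 3.04 (SE 0.18, limma adjusted p = 0.000357). Fkbp5, a chaperone of the steroid receptor, averaged 11.87 ± 0.54 in set 2 and 8.78 ± 0.63 in set 1, a difference of 3.09 (SE 0.32, adjusted p = 0.00154). Per1, a clock gene that glucocorticoids induce, differed by 0.82 (SE 0.19, adjusted p = 0.0253). The receptor gene Nr3c1 was not called, at -0.38 (SE 0.13, adjusted p = 0.082). The count of 10 was 4 without control 4 and 6 without control 2 or without mutant 4. Of the 17 clock genes, 2 were called higher in set 2 and 3 lower (median 0.03), against 7.79% of all genes called lower. Among them Per1 was higher and Dbp, a clock output, was lower, with a set difference of -1.32 (SE 0.37, adjusted p = 0.045). Of the other Kruppel-like and Sp factors, 4 of 13 were called higher in set 2 and 1 lower, Klf10, another clock-controlled factor, with a set difference of -0.71 (SE 0.14, adjusted p = 0.0152). Lists of other kinds differed between the sets too: 9 of 16 endothelial markers were called lower in set 2 and 0 higher (median -0.90). Immediate-early genes had 5 of 24 called lower and 1 higher (median -0.11), and fibroblast markers 3 of 13 higher and 0 lower (median 0.44). Striated muscle markers had 2 of 7 called higher and 0 lower (median 0.87), and Schwann cell and neuron markers 0 of 10 called (median -1.58). Leukocyte markers had 2 of 16 called lower and 0 higher (median -0.29), and adipocyte markers 1 of 9 lower and 0 higher (median -0.43). Smooth muscle markers had 0 of 12 called (median -0.01). Whether time of day, handling, tissue makeup or another feature of the sets moves with these values was not tested.

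**Figure D5:**
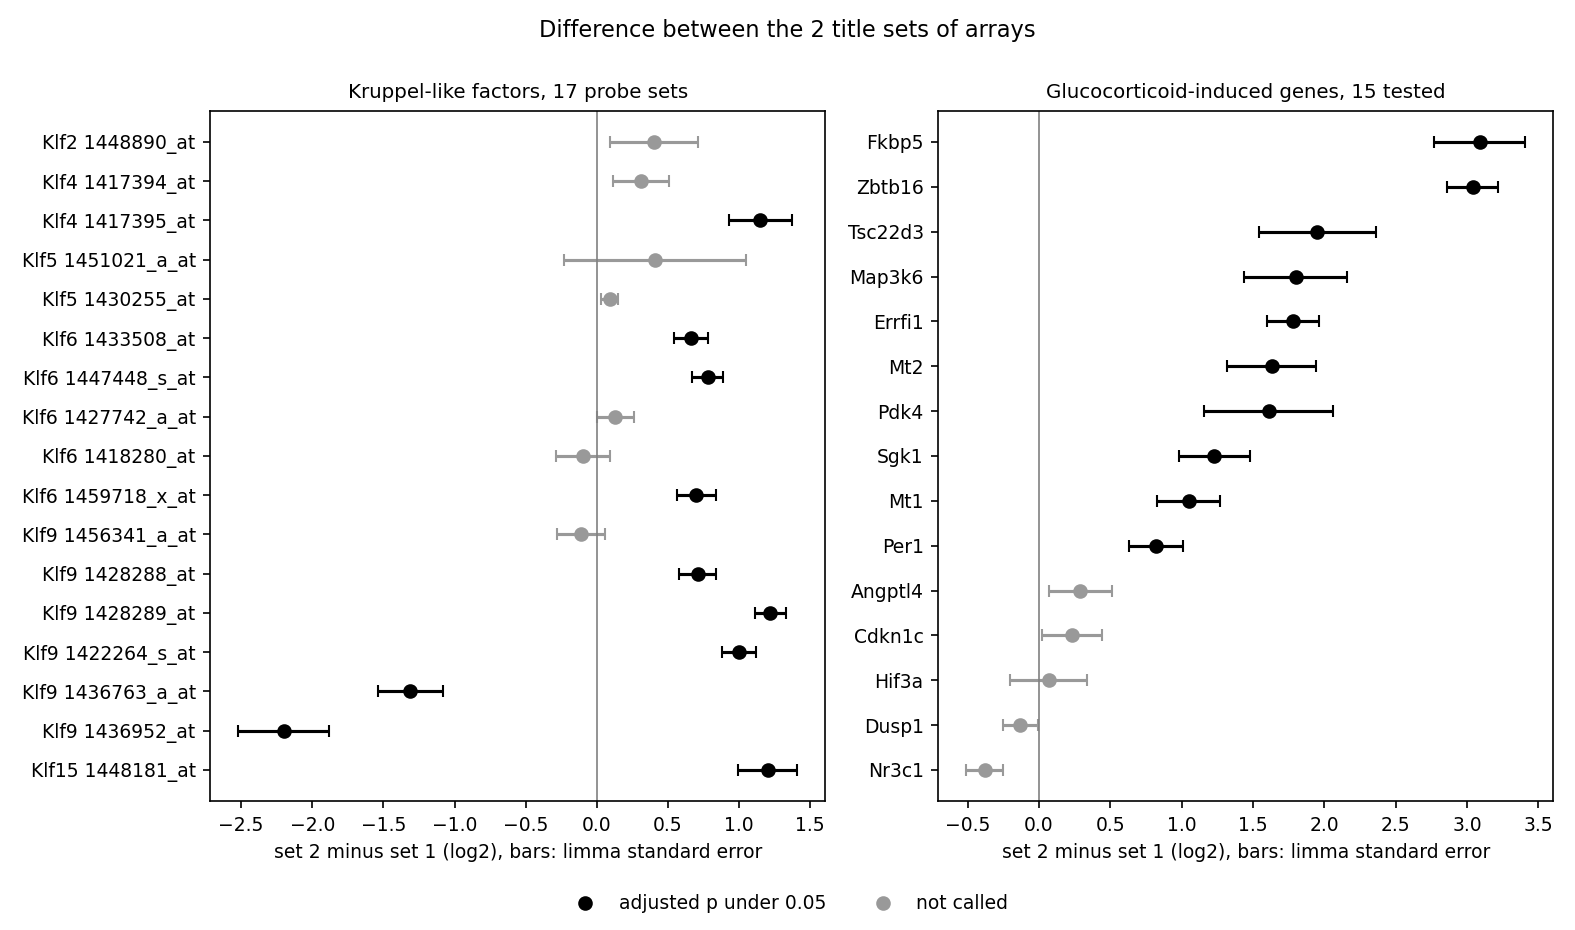
Set 2 minus set 1 on the log2 scale (horizontal axis, with limma standard errors) for the 17 probe sets at left and the 15 tested genes of the glucocorticoid list at right, black where the adjusted p was under 0.05. The list includes the receptor gene Nr3c1. Klf9 has probe sets on both sides of 0, from -2.20 to 1.22, and Fkbp5 and Zbtb16 have the greatest set differences of the right panel, 3.09 and 3.04.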

How the data were processed

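Gene expression was measured in aorta RNA of 4 mutant and 4 control samples on Affymetrix arrays, and groups were taken from the labels. The authors deposited log2 values per probe set, from 0.90 to 15.82. The submitters' processing notes name GCOS and no version of it. How background, normalization and summarization were handled is stated in no source used here. The values were used as deposited, and their range shows the log2 scale. Of 45037 probe sets, the annotation gave 1 symbol for 34945, several for 932 and none for 9160. All 8 columns were used.

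The dimmest 40% of probe sets by mean over all arrays were not tested, leaving 27023 with a mean of at least 2.97. Two-sided tests came from limma 3.58.1 (R 4.3.3) with terms for set and genotype and a trended variance prior, and calls were made at a Benjamini-Hochberg adjusted p under 0.05. An interaction fit tested whether the mutant difference differed between sets. SE is limma's moderated standard error. All probe sets of the 6 factors were examined, with the 4 genes of smallest p considered in each of 20 lists and the 3 genes of highest r with each factor. Members and lists were chosen with earlier results of these data known. Arrays are numbered in sample order within a group, and only set 2 titles share numbers between groups, over 2 pairs, too few to check a pairing. The procedure was tested on simulated data. Alternatives were other filters, scalings, terms and variance models, single sets and each array left out. The alternatives for the glucocorticoid count were added after the data were seen. Promoter sequences are RefSeq's.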

Additional observations from a re-analysis of the deposited data

Results flagged for a closer look

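Of 38 groups of 4 arrays looked at, over the 19 probe sets, 2 held an array far from the other 3 by Dixon's criterion, which chance meets in about 1 of 20 groups. For Klf4 (1417394_at) mutant 1 read 10.78, where the other 3 mutants read 10.56 to 10.57. For the dim, untested Klf5 probe set 1451739_at mutant 3 read 3.28, where the other 3 mutants read 2.89 to 2.95.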

How the results depend on the processing

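The number of Kruppel-like factor probe sets called between mutants and controls was 0 under all 18 alternatives, with a smallest limma adjusted p of 0.107, for Klf4. Klf2, Klf4 and Klf5 differences stayed above 0 and those of Klf6 below 0 under every alternative run, with ranges of 0.20 to 1.78, 0.42 to 1.26, 0.04 to 2.20 and -0.28 to -0.02. The sign turned for Klf9 with median centring (-0.03) and on its probe sets 1422264_s_at (-0.11), 1436763_a_at (-0.11) and 1436952_at (-0.20), and over single arrays left out the Klf9 value ran from -0.09 to 0.18. It turned for Klf15 with weights per array (0.14) and in set 1 alone (0.05), and over single arrays left out ran from -0.28 to 0.08. Fitting the set 2 title number as a replicate block left Klf2 at 0.99 (adjusted p = 0.601) and Klf4 at 0.84 (adjusted p = 0.538) and changed no call of the 17. Over all probe sets, 10 were called with weights per array and 0 to 11 with an array left out (11 without control 3). The count at an unadjusted p under 0.05 was 2581, and 1426 without control 1, 1279 with no set term and 1485 in set 2 alone. Genes of the lists called numbered 0 to 3 with an array left out; the 3, without control 3, were Ptprb, Pi16 and Scara5. The interaction called 0 of the 17 with no filter, with quantile normalization and with no variance trend. With an array left out, the Klf2 change between sets ran from -1.76 to -1.41. Set calls among the 17 numbered 9 to 10, and glucocorticoid-induced genes called higher in set 2 numbered 4 to 11. The median of all genes was -0.09 with median centring and -0.02 as deposited. Without mutant 2 the nerve marker median was 0.00, and with no filter the median of genes tied to Klf5 was -0.01. The causes were not tested. Dim probe sets, such as those of Klf5, limit what can be read from them.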
